A study of Mus musculus with 4 samples.

Results

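TAD7 is the topologically associating domain at the higher-coordinate end of the 5C map of the Epidermal Differentiation Complex and its neighbours. It was taken as 94.8275 to 95.2 Mb of mouse chromosome 3 (mm9), from the average keratinocyte position of the TAD6/TAD7 border to the end of the probed region. This stretch is 372.5 kb long. The paper describes the region as holding only part of TAD7, so 95.2 Mb is where the probes stop and not a border. A contact is a pair of HindIII fragments, 1 with a forward and 1 with a reverse probe. A contact was a member when the midpoint of at least 1 of its fragments lay in TAD7. This held for 64 of 712 fragments and for 19218 of the 111588 contacts listed in at least 1 library, 1014 of them within TAD7 and 18204 between TAD7 and the other 6 TADs. All 4 libraries listed 3311 of these contacts, 419 within TAD7 and 2892 to the rest of the locus.

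The study compared primary epidermal keratinocytes of newborn C57BL/6 mice (2 libraries) with primary thymocytes of the same strain and age (2 libraries), a lymphoid cell in which the epidermal genes of the locus are silent. The keratinocytes were freshly plated in low-calcium medium and the thymocytes were the total cell population of the thymus. No agent or engineered allele was used, and both cell types were fixed in 1% formaldehyde for 10 min. The labels do not give the number of animals behind a library, so the spread between libraries may be partly technical. The tables hold no expression values, so cell identity could not be checked against marker genes.

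A topologically associating domain is a stretch of chromatin whose sites meet each other more often than they meet sites across its border. Such domains hold many of the contacts between promoters and enhancers, and gene-rich domains with active housekeeping genes tend to contact each other over long distances. TAD7 lies beyond the epidermal gene families of the locus and carries genes of general cell functions. Among them are Psmd4, a ubiquitin receptor of the proteasome, Pip5k1a, a kinase that makes a membrane phosphoinositide, Setdb1, a histone methyltransferase of heterochromatin, and Cers2, a ceramide synthase. The study placed 2 candidate enhancers there, E15 (chr3:95031770-95035268) and E16 (chr3:95080755-95088279).

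On the reference sequence the probed part of TAD7 had the most protein-coding genes per length, 18 genes or 4.83 per 100 kb against 0.238 to 4.36 in the other 6 TADs. Its base composition was 45.8% G and C, also the highest of the 7, and it had the fewest HindIII sites per length, 93 in 372.5 kb, where the other 6 had 29.8 to 35.7 per 100 kb. Of the 20 genes followed here, 10 had a promoter (250 bases before to 50 after the annotated start) with an observed over expected CpG ratio of at least 0.6, against 14.9% of the 121 other protein-coding genes of the locus. The ETS-factor core CCGGAAG, searched on both strands, was found in 4 of the 20 promoters (Psmd4, Scnm1, Lysmd1 and Setdb1, the middle pair sharing a divergent promoter) and in 0% of the other 121. The GC box GGGCGG was found in 40.0% of the 20 and in 14.0% of the others, and CCAAT in 30.0% and 35.5%. These are matches of letters and not measured binding sites.

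The probes below read the fragments on which the contacts described later rest. The bases in capitals anneal to the mouse genome and end or start at the HindIII site, and the bases in lower case are the common amplification tail. The capitals of each were identical to mm9, on the strand given.
Mllt11 and Cdc42se1 start sites, fragment REV_1672, chr3:95033798-95033827, minus strand: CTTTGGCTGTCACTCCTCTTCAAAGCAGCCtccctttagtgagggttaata
Cdc42se1 body, fragment FOR_1673, chr3:95039773-95039802, plus strand: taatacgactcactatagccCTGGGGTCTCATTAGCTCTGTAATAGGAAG
Prune and Fam63a start sites, fragment REV_1678, chr3:95090604-95090633, minus strand: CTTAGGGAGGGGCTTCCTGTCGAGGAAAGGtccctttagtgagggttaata
Pip5k1a, fragment FOR_1624, chr3:94871794-94871823, plus strand: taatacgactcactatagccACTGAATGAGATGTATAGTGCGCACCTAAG
Sema6c 3′ end, fragment REV_1654, chr3:94978462-94978491, minus strand: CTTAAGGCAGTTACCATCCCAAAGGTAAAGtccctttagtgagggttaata
Gabpb2, fragment FOR_1660, chr3:94996343-94996372, plus strand: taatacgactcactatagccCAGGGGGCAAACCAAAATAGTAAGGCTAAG
Setdb1, fragment FOR_1689, chr3:95158421-95158450, plus strand: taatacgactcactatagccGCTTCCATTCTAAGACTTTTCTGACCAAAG
near S100a11 in TAD4, fragment REV_1134, chr3:93321739-93321768, minus strand: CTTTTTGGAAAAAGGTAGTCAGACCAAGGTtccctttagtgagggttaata
These probes read only the higher-coordinate end of their fragments. For the 1.85 kb fragment over the start sites of Mllt11 and Cdc42se1 that end lay 1.23 and 1.17 kb from the starts. For the 23.6 kb fragment over Prune and Fam63a it lay 4.64 and 5.37 kb away, and E16 itself lay on this single large fragment. The next fragment, within 10 kb of E16, had no contact within TAD7 listed in all 4 libraries.

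E15 covers the divergent promoter of Mllt11, the gene of a small protein first known as a fusion partner in leukaemia, and Cdc42se1, which encodes a small effector of the GTPase Cdc42. Their annotated starts are 54 bases apart. The stretch chr3:95032527-95032726 of mm9, plus strand, is shown with the bases between the starts in capitals.
Mllt11/Cdc42se1 promoter: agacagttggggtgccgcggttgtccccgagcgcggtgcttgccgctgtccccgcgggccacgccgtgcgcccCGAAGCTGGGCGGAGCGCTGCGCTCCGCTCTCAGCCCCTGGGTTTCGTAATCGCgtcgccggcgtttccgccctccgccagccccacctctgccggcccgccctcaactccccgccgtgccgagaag
It is 74.5% G and C and holds 29 CpG dinucleotides in 200 bases (observed over expected ratio 1.07). The GC box occurs within the capitals and also, as its reverse complement, in the lower-case bases after them.

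The libraries differed in how many contacts they listed. Within TAD7 the keratinocyte libraries listed 98.6% and 72.6% of the possible pairs of their fragments, and the thymocyte libraries 58.5% and 56.8%. Toward the rest of the locus the shares were 80.2% and 53.2% in keratinocytes and 31.6% and 37.7% in thymocytes. Over the 419 shared contacts within TAD7, the Z scores of keratinocytes 2 followed those of thymocytes 1 (r = 0.62) more closely than those of keratinocytes 1 (r = 0.23), and the 2 thymocyte libraries had r = 0.38. These correlations are across contacts that share fragments and are given as a description. The libraries therefore did not group by cell type in this domain, and every difference below is given with each library's value.

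Within TAD7, contacts exceeded the frequency expected at their distance in all 4 libraries, and the typical contact lay higher in keratinocytes. The Z score is the corrected 5C frequency minus the expected frequency, divided by the standard deviation at that distance. Its mean over the 419 contacts was 2.03 and 1.60 in keratinocytes and 1.63 and 1.36 in thymocytes. The cell types overlapped, with a difference of 0.32 (two-sided exact permutation p = 0.667), and without keratinocytes 1 it was 0.10. The median Z score was 1.19 and 0.82 in keratinocytes and 0.39 and 0.52 in thymocytes, and here the groups did not overlap (difference 0.54, two-sided exact permutation p = 0.333, the smallest that 2 libraries against 2 allow). The mean log2 ratio of corrected to expected frequency was likewise 0.74 and 0.51 against 0.23 and 0.31, which is 0.62 ± 0.16 (SD, n = 2) against 0.27 ± 0.06 (SD, n = 2), with the same p of 0.333 in the exact permutation test. The corrected frequency lay above the expected one for 89.0% and 79.2% of the contacts in keratinocytes and for 63.0% and 66.1% in thymocytes. Within TAD1 these shares were 67.1% and 69.5% against 55.8% and 60.7%, and within TAD6 65.6% and 69.3% against 60.7% and 61.0%. The median Z score there was 0.44 and 0.42 against 0.14 and 0.25 (TAD1) and 0.42 and 0.39 against 0.21 and 0.19 (TAD6). Both measures thus separated without overlap in these domains as well. TAD4 went the other way in both measures and TAD3 in the shares.

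**Figure D1:**
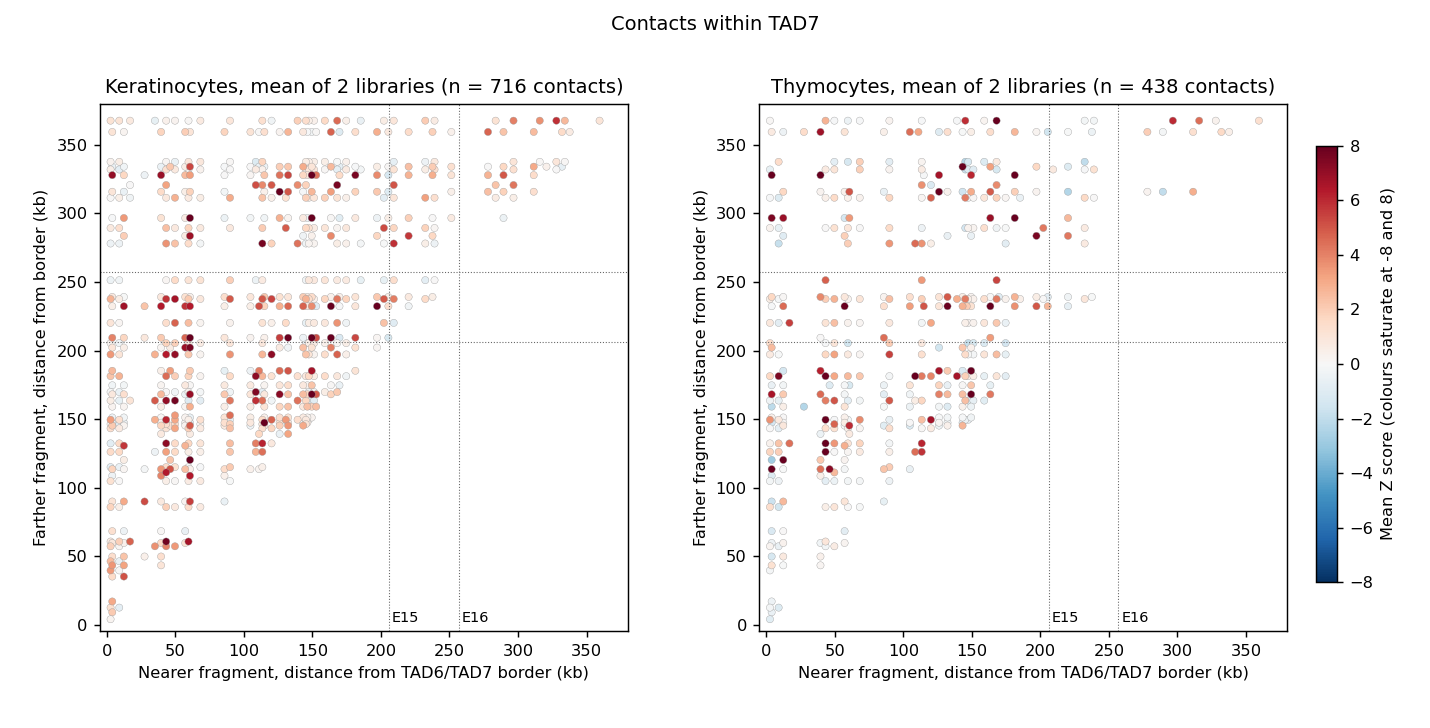
Each point is a contact within TAD7, placed by the distance of its nearer (x) and farther (y) fragment from the TAD6/TAD7 border in kb and coloured by the mean Z score of the 2 libraries of keratinocytes (left, 716 contacts) or thymocytes (right, 438 contacts). Dotted lines mark the centres of E15 and E16. Pale red points fill the keratinocyte panel, while the thymocyte panel mixes pale blue and pale red points with a few of high score.

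Counted contact by contact, both keratinocyte libraries lay above both thymocyte libraries at 138 of the 419 contacts within TAD7 (32.9%), where 21.1% of all 23395 contacts of the locus did so. Both lay below at 27 contacts (6.44%), against 19.1% of all contacts. In a limma fit of the Z scores over all contacts, 26 contacts within TAD7 were higher (6.21%, against 2.97% of all contacts) and 2 were lower (0.477%, against 2.14%) in keratinocytes at an unadjusted p under 0.05. None passed the adjusted threshold within TAD7 or toward the rest of the locus, and the share of all contacts that did was 0%. The smallest adjusted p of limma was 0.767. On simulated data for this comparison with the observed spread, the fit called none of 200 contacts shifted by a Z score of 16 and 182 of 200 shifted by 32. Differences between these sizes were not simulated, and the contact with the smallest p measured -19.18.

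The difference in log2 ratio was present in each class of distance. Between 10 and 50 kb the mean log2 ratio was 0.87 and 0.61 in keratinocytes and 0.19 and 0.28 in thymocytes (86 contacts). Between 200 and 400 kb it was 0.61 and 0.37 against 0.23 and 0.23 (72 contacts). The 28 contacts under 10 kb gave 0.36 and 0.18 against -0.35 and -0.03, so the groups did not overlap in these classes. Over the contacts within the other 6 TADs the difference between cell types ran from -0.11 to 0.07 in the same classes, against 0.26 to 0.51 in TAD7. Taken singly, however, TAD1 and TAD6 also differed, by 0.40 and 0.32 under 10 kb. TAD1 differed by 0.19 between 10 and 50 kb. Between 200 and 400 kb TAD6 had 0.41 and 0.37 against 0.12 and 0.17, a difference of 0.24 without overlap that was close to the 0.26 of TAD7. In TAD1 the groups also did not overlap between 50 and 100 kb and between 100 and 200 kb (differences 0.12 and 0.14). Over all distances the difference was 0.36 in TAD7, -0.26 to 0.10 in TAD1 to TAD4 and TAD6, and 0.51 in TAD5 with its 10 contacts. The 0.10 was that of TAD6, with 0.19 and 0.19 against 0.06 and 0.11, without overlap. TAD3 and TAD4 were lower in keratinocytes, also without overlap (-0.07 and -0.26).

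**Figure D2:**
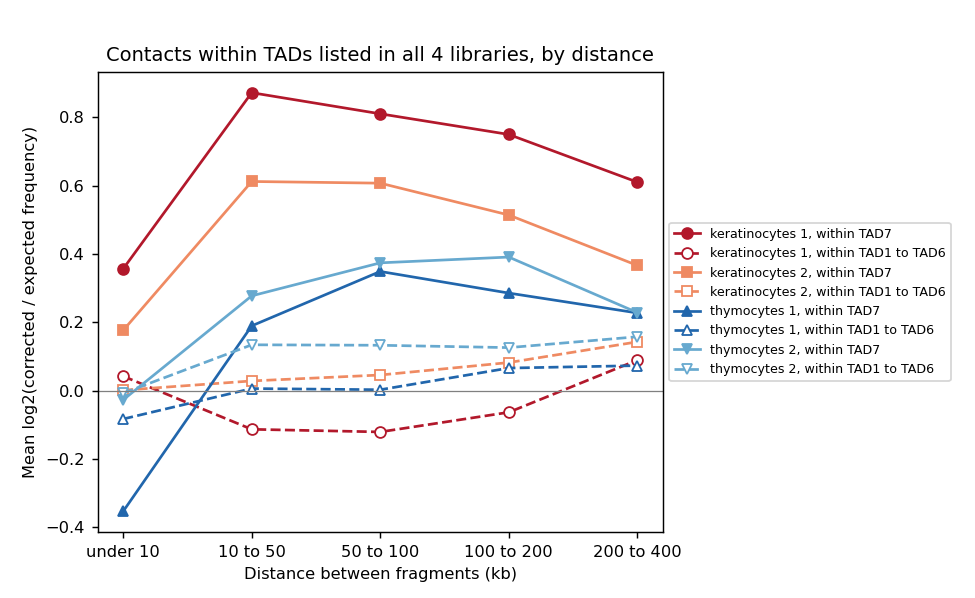
Mean log2 ratio of corrected to expected frequency (y) by distance between fragments in kb (x) for contacts listed in all 4 libraries, 1 line per library, solid with filled symbols within TAD7 and dashed with open symbols within TAD1 to TAD6 together. Above 10 kb the 2 solid keratinocyte lines lie between 0.37 and 0.87 and the 2 solid thymocyte lines between 0.19 and 0.39.

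The corrected frequencies themselves, which carry each library's decay with distance, gave opposite directions at short and long range. Under 10 kb the mean corrected frequency within TAD7 was 9301 and 6644 in keratinocytes and 32268 and 52923 in thymocytes, a log2 difference of -2.39. Between 50 and 100 kb it was 1713 and 870.4 against 721.0 and 693.2 (log2 difference 0.79), and between 200 and 400 kb 733.0 and 383.3 against 265.7 and 225.0 (log2 difference 1.12). The log2 difference under 10 kb was -2.36 within the other TADs and that between 200 and 400 kb was 1.07, so the frequency differences at the shortest and longest range were close to those of the locus. Between 10 and 50 kb TAD7 had a log2 difference of 0.62, with 3032 and 1622 against 1464 and 1422, where the other TADs together had 0.08. This difference was 0.17 without keratinocytes 1 and 1.07 without keratinocytes 2, and that between 50 and 100 kb was 0.30 and 1.28. The mean over all 419 contacts was set by the shortest ones, with a log2 difference of -1.08 that turned to 0.93 when the median was taken. These frequencies were not scaled between libraries. With the libraries scaled to the same total the log2 difference was -0.0011 over all 419 contacts, -1.32 under 10 kb and 1.70 between 10 and 50 kb.

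The contacts within TAD7 also had higher scores than those within other domains. Its mean Z score ranked first of the 7 TADs in 3 libraries and second in keratinocytes 1, after TAD5 with 10 contacts. It exceeded that of TAD6, the neighbouring domain, by 1.24 and 0.89 in keratinocytes and by 0.96 and 0.70 in thymocytes. It exceeded that of TAD1, the gene-rich domain at the other end of the locus, by 1.27 and 0.61 and by 0.71 and 0.36. At matched distance the excess over TAD1 was 0.95, 0.49, 0.86 and 0.28 in the same order. All 4 libraries lay above 0 in each of these comparisons (the exact sign-flip test, which with 4 libraries cannot fall below 0.05, then gives its smallest p). Whether the excess differed between cell types was not resolved, since the libraries overlapped (differences of 0.24 for TAD6 and 0.41 for TAD1, exact permutation p = 0.667 for both).

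A contact counted as called in a cell type when each of its libraries gave a q-value below 0.05. Within TAD7 this held for 80 of 716 contacts in keratinocytes (11.2%) and for 55 of 438 in thymocytes (12.6%), where the shares over all contacts of the locus were 1.99% and 4.03%. Within the other 6 TADs combined, 261 of 11047 and 397 of 8631 contacts were called. Of the 419 shared contacts, 42 were called in keratinocytes and 53 in thymocytes, and 27 in both. The shared calls were 64.3% of the keratinocyte and 50.9% of the thymocyte calls. Over all contacts of the locus common calls were 28.6% of the keratinocyte and 15.4% of the thymocyte calls, and 0.581% of the contacts. The fragments behind the calls were unevenly listed. With the 39 TAD7 fragments that had at least 10 shared contacts within the domain, 25 of 373 contacts (6.70%) were called in keratinocytes and 31 of 341 (9.09%) in thymocytes, while the contacts of the other fragments were called at 55 of 343 and 24 of 97. The median over fragments of the mean Z score was 1.46 in keratinocytes and 1.11 in thymocytes for these 39 and 2.57 and 2.92 for the 21 fragments with 1 to 9 contacts.

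Toward the rest of the locus, TAD7 stood close to the expected frequency, and the shares of contacts called with each partner domain, given here without a test, were not alike in the 2 cell types. The mean Z score over 2892 contacts was 0.25 and 0.48 in keratinocytes and 0.54 and 0.61 in thymocytes, a difference of -0.21 with no overlap (exact permutation p = 0.333). Without keratinocytes 1 it was -0.0946, with keratinocytes 2 still below both thymocyte libraries, and the range over left-out libraries was -0.33 to -0.0946. The medians were 0.03 and 0.17 against 0.10 and -0.02, with the sign turned, so the lower mean in keratinocytes was not seen in the typical contact. Which scores lowered the mean was not tested.

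By partner, the mean was higher in keratinocytes for TAD1 and TAD2 and lower for the other 4 TADs. TAD1 holds S100 genes, which encode calcium-binding proteins, at the far side of the gene desert. Its 708 contacts with TAD7 gave mean Z scores of 0.49 and 0.52 in keratinocytes and 0.23 and 0.36 in thymocytes (difference 0.21). The 1095 contacts with TAD6 gave 0.15 and 0.41 against 0.77 and 0.61 (difference -0.41), and the 365 contacts with TAD3, which holds late cornified envelope genes, gave 0.17 and 0.24 against 0.47 and 0.66 (difference -0.36). None of the 3 overlapped between cell types, nor did TAD5 with 20 contacts, while TAD2 and TAD4 overlapped. The exact permutation p adjusted over the 6 partners was 0.5 at its lowest. On the scale of log2 corrected over expected frequency TAD1 alone stayed without overlap (-0.01 and 0.03 against -0.13 and -0.02), while TAD3, TAD5 and TAD6 overlapped. The TAD1 difference did not hold in other summaries. With the median it was 0.0330 with overlap (exact permutation p = 1), and over all contacts each library lists it was 0.20 with overlap (exact permutation p = 0.667).

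**Figure D3:**
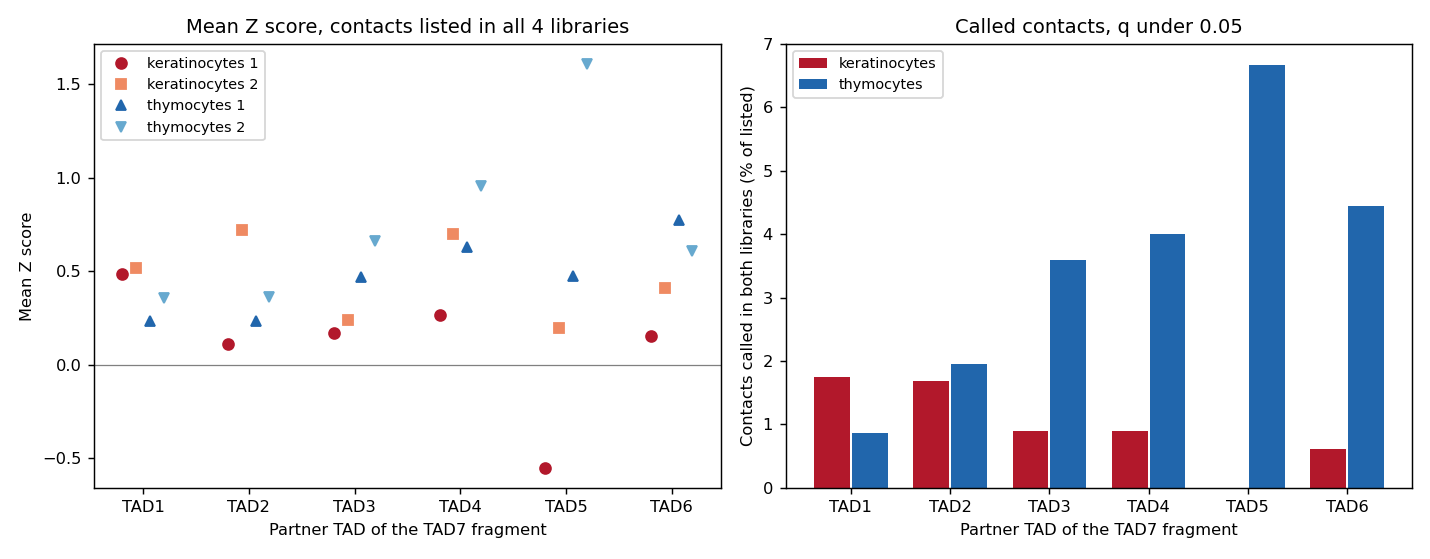
Left, mean Z score (y) of contacts between TAD7 and each other TAD (x) in each of the 4 libraries. Right, the share of listed contacts called in both libraries of keratinocytes and thymocytes, in percent. Keratinocytes exceed thymocytes for TAD1 (1.74% against 0.868%) and lie below them for TAD3 to TAD6.

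Calls made in both libraries were fewer per listed contact in keratinocytes for every partner but TAD1. Single libraries called 3.59% and 11.3% of the listed contacts leaving TAD7 in keratinocytes and 12.0% and 14.9% in thymocytes. Keratinocytes 2 thus lay nearer to the thymocyte libraries than to keratinocytes 1. In keratinocytes 102 of 9086 contacts leaving TAD7 were called (1.12%) and in thymocytes 123 of 3719 (3.31%). The shares over all contacts of the locus were 1.99% and 4.03%. For contacts between different TADs among TAD1 to TAD6 they were 1.92% and 3.70%, so the lower share in keratinocytes was not particular to TAD7. Keratinocytes had 41 of 2355 contacts called with TAD1 (1.74%), against 7 of 806 in thymocytes (0.868%). With TAD6 the counts were 13 of 2143 (0.607%) and 56 of 1258 (4.45%), and with TAD4, which holds S100a11, 19 of 2107 (0.902%) and 32 of 798 (4.01%). For comparison, the contacts of TAD6 with TAD1 span a similar distance (median 4254 kb against 4727 kb) and were called in 2.01% in keratinocytes and 2.51% in thymocytes. Over shared contacts, the calls with TAD1 numbered 13 in keratinocytes and 4 in thymocytes and those with TAD6 were 2 and 49, with none shared for either partner. A call was specific when the contact was not called in both libraries of the other cell type, though 1 of them could call it. Over all partners 27 outward calls were specific to keratinocytes, 87 to thymocytes and 3 were common, and with the calls within TAD7 the specific counts were 42 and 113 of 3311. The shares of all contacts of the locus were 1.45% specific to keratinocytes and 3.19% specific to thymocytes.

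**Figure D4:**
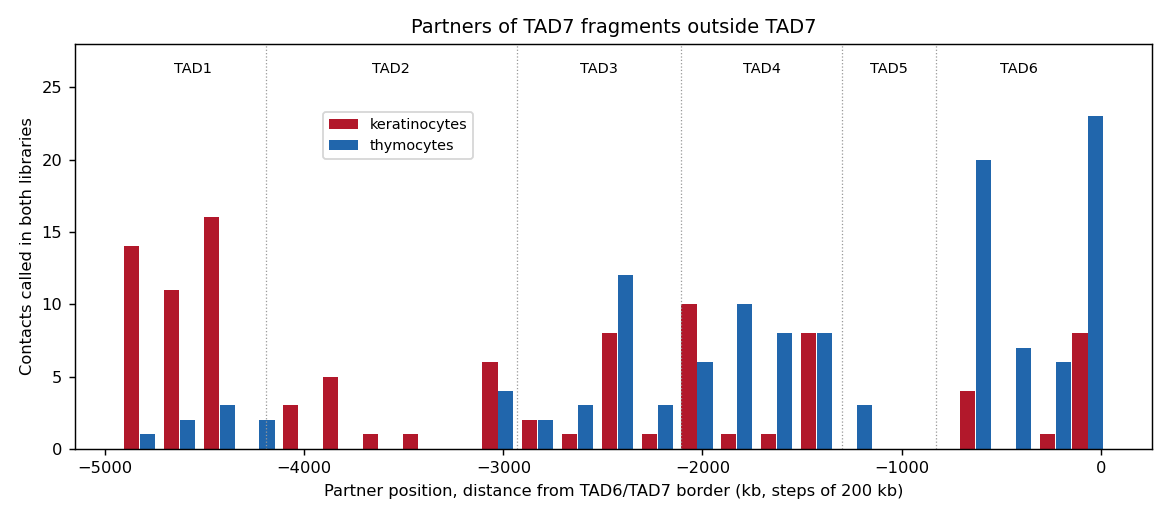
Number of contacts of TAD7 called in both libraries (y) by the position of the partner, as distance from the TAD6/TAD7 border in kb (x, steps of 200 kb, dotted lines at the other TAD borders). The 3 steps at the far end of TAD1 hold 14, 11 and 16 keratinocyte calls and 1, 2 and 3 thymocyte calls, and the step next to the border holds 8 and 23. The contacts listed in both libraries differed as well. They were 639, 756 and 754 against 201, 264 and 278 in the 3 steps and 625 against 418 next to the border. Over all contacts of the locus 1.99% were called in keratinocytes and 4.03% in thymocytes.

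The border with TAD6 was measured as the log2 ratio of mean frequency within TAD6 or TAD7 to that between them, at matched distance in 14 bins of 50 kb. It was 0.44 and 0.28 in keratinocytes and 0.32 and 0.31 in thymocytes, so contacts within the domains were more frequent in every library. The difference of 0.05 lay inside the spread (exact permutation p = 1) and its sign turned with wider bins or without keratinocytes 1. Without contacts under 50 kb it was 0.20 and with the median 0.11, both without overlap. Bins of 100 kb gave -0.10, also without overlap, so the direction depended on the setting.

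E15 was read through 5 fragments that overlap it or lie within 10 kb. Its 64 contacts within TAD7 had mean Z scores of 2.42 and 1.41 in keratinocytes and 1.06 and 0.92 in thymocytes, a difference of 0.92 with no overlap (exact permutation p = 0.333) that was 0.42 without keratinocytes 1. The 3 fragments that overlap E15 gave a difference of 1.06. In keratinocytes 13 of 117 listed contacts were called (11.1%) and in thymocytes 6 of 66 (9.09%), close to the shares of all contacts within TAD7. Toward the rest of the locus the means were 0.22 and 0.62 against 0.76 and 0.54 and the cell types overlapped, with 10 of 852 (1.17%) and 11 of 327 contacts (3.36%) called. This outward result depended on the setting. The 3 fragments that overlap E15 gave a difference of -0.86 and all contacts each library lists gave -0.44, both without overlap. The median gave -0.10 with overlap. The fragment at the shared start of Mllt11 and Cdc42se1 was itself low, with a mean over 13 contacts of 0.87 in keratinocytes and -0.13 in thymocytes, while the next fragment, in the body of Cdc42se1, had 3.12 and 2.17 over 4 contacts.

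The 35 contacts of E15 called in either cell type were 23 in keratinocytes and 17 in thymocytes, 5 of them in both. Only 9 of the 23 were listed in both thymocyte libraries and 12 of the 17 in both keratinocyte libraries, so the rest could not be compared. The strongest in keratinocytes joined the Cdc42se1 fragment to the 3′ end of Sema6c, a transmembrane semaphorin, 55 kb away, with Z scores of 6.56 and 13.91 and no value in thymocytes. One joined Gm16740 and Mllt11 to Prune, 29 kb apart, with 11.78 and 4.59 in keratinocytes and 6.08 and 3.91 in thymocytes. The strongest in thymocytes was common to all libraries, and ran from the Cdc42se1 fragment over 1712 kb to a fragment near S100a11, a calcium-binding protein gene of TAD4. Its corrected frequency was 275.0, 221.7, 266.9 and 75.6 in keratinocytes 1 and 2 and thymocytes 1 and 2, against expected values of 68.5, 36.7, 49.1 and 17.2. The Z scores were 5.07 and 10.66 against 10.38 and 8.37.

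E16 could be judged from few contacts. The fragment over the Prune and Fam63a starts had 3 contacts within TAD7 in all 4 libraries, with Pip5k1a, Lysmd1 and Gabpb2, and none was called. Their mean Z score was 0.31 and 0.77 in keratinocytes and 4.27 and 4.83 in thymocytes. The thymocyte means came from different contacts, since Pip5k1a had -1.70 and 11.29 in the 2 libraries and Gabpb2 had 8.69 and 2.07. The difference of -4.01 was -1.07 over all contacts each library lists. Of its contacts with the rest of the locus, thymocytes called those with Snx27 (6.51 and 5.04, against -0.24 and 3.45 in keratinocytes) and with a fragment near Selenbp1 (3.31 and 9.29, against -0.64 and 0.22), and keratinocytes called 1 near Lce3a (3.89 and 11.07) that was not listed in thymocytes. A second Snx27 fragment, not called, went the other way, with -2.07 and -1.51 in thymocytes and 0.78 and 6.43 in keratinocytes.

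The 20 genes of TAD7 were each read through the fragments that overlap them. Both keratinocyte libraries lay above both thymocyte libraries in the mean Z score within TAD7 for 7 genes, below for 2 and overlapped for 11. Over 99 genes of the locus and contacts within their own TAD, the shares were 21.2% above and 27.3% below. The 2 genes below had 3 and 8 contacts, and all 7 above had at least 10. The lowest p adjusted over the genes was 0.741 (exact permutation test). Neighbouring genes share fragments and are not independent, and Bnipl and Gm128 have the same single fragment.

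Among the genes of chromatin, transcription and splicing, Mllt11 had mean Z scores of 2.59 and 1.58 in keratinocytes and 0.93 and 1.06 in thymocytes (39 contacts). The other 4 overlapped between cell types. Gabpb2, a subunit of the GA-binding transcription factor, had 2.33 and 1.64 against 2.44 and 1.84 over 103 contacts, with 20 of 163 contacts called in keratinocytes and 20 of 110 in thymocytes. Setdb1 had 2.19 and 2.28 against 2.39 and 1.27, with 14 of 135 and 7 of 64 called. Vps72, a subunit of complexes that exchange a histone variant, had 2.12 and 1.01 against 0.88 and 1.25. Scnm1, a splicing factor, had only 6 contacts.

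Among the genes of signalling, cytoskeleton and guidance, Cdc42se1 had 1.62 and 1.15 in keratinocytes and 0.79 and 0.42 in thymocytes. Tmod4, which caps actin filaments in muscle, had 0.43 and 0.71 against 0.23 and 0.40, low in all libraries. Both were above without overlap, whereas Sema6c (1.86 and 1.42 against 1.31 and 1.53) and Prune, a phosphohydrolase, (2.91 and 1.31 against 1.33 and 2.29) overlapped. Of the lipid and membrane genes, Anxa9, an annexin, had 1.86 and 2.57 against 1.55 and 1.32 over 13 contacts. Pip5k1a overlapped, with 2.24 and 1.66 against 1.81 and 1.49 over 118 contacts, and held the largest number of calls among the 20 genes in keratinocytes, 26 of 194, against 16 of 122 in thymocytes. Cers2 ranged from 1.38 to 8.27 over 8 contacts.

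Bnipl, a gene related to a regulator of cell death, and Gm128 had 1.83 and 0.91 in keratinocytes and 0.63 and 0.89 in thymocytes. Tnfaip8l2, a restraint on immune signalling, had 2.54 and 1.46 against 3.75 and 2.88 over 8 contacts, and Psmd4 overlapped with 1.24 and 0.78 against 0.61 and 0.93. Gm16740, next to Mllt11, had 3.59 and 1.79 against 1.47 and 1.65. Of the 7 genes above, 5 lay side by side around E15, from Gm16740 to Bnipl, on fragments that they partly share. Without keratinocytes 1 the differences for Gm16740, Cdc42se1, Gm128 and Bnipl were 0.23, 0.55, 0.14 and 0.14, with keratinocytes 2 still above both thymocyte libraries. Over all contacts each library lists Gm128 and Bnipl overlapped, as did Tmod4 and Anxa9 with differences of 0.13 and 0.11. With the well-listed fragments alone Gm128, Bnipl and Gm16740 overlapped. Toward the rest of the locus no gene was above without overlap and 7 were below (Vps72, Lysmd1, Gabpb2, Mllt11, Cdc42se1, Cers2 and Setdb1), where the shares over 95 genes of the locus were 8.42% and 34.7%.

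**Figure D5:**
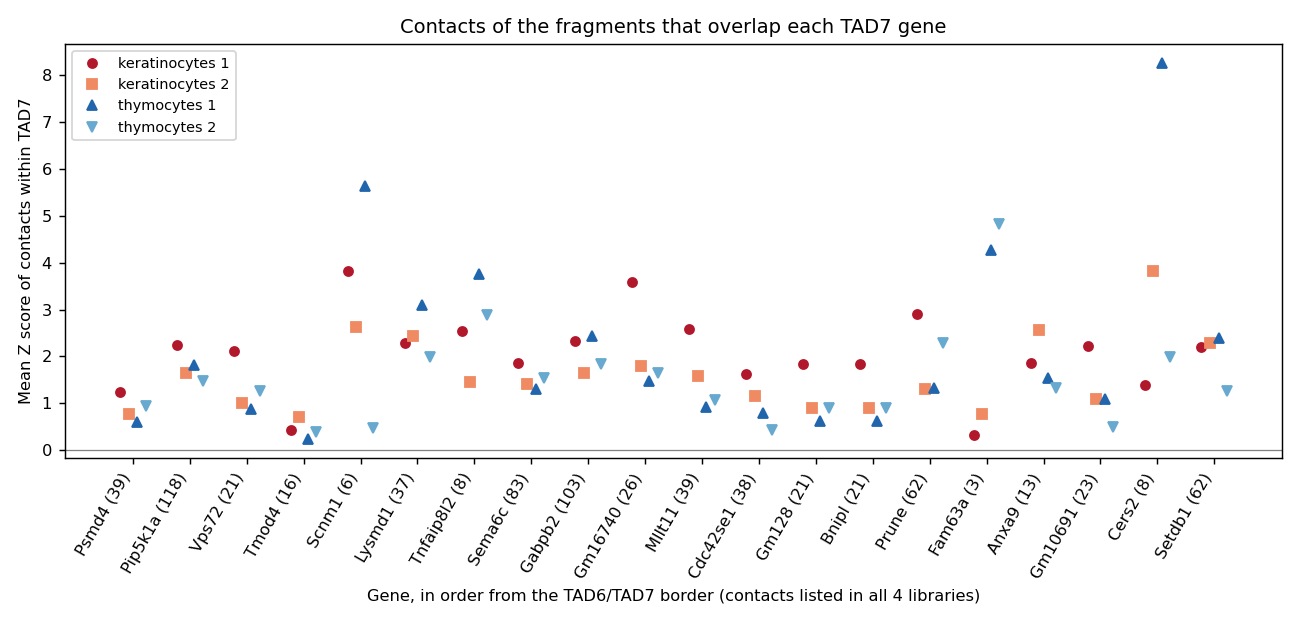
Mean Z score of contacts within TAD7 (y) for the fragments of each of the 20 genes (x, in order from the TAD6/TAD7 border, with the number of contacts listed in all 4 libraries), 1 symbol per library. From Gm16740 to Bnipl both keratinocyte symbols lie above both thymocyte symbols, and the widest spreads belong to the genes with the fewest contacts (Scnm1, Fam63a and Cers2).

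The strongest called contacts, among those listed in all 4 libraries, were named by their mean Z score in each cell type and are a description. A contact of 16 kb between Gabpb2 and the 3′ end of Sema6c was among the top 5 of both cell types, with Z scores of 6.09 and 11.85 in keratinocytes and 10.84 and 10.62 in thymocytes, and corrected frequencies of 6212 to 7513. The same Sema6c fragment met Pip5k1a, 104 kb away, at 3.64 and 8.50 in keratinocytes and 23.25 and 17.52 in thymocytes, and a Setdb1 fragment, 174 kb away, at 7.52 and 11.48 against 9.26 and 2.92. Prune met Gabpb2 over 61 kb at 12.92 and 4.36 against 9.77 and 7.92. Among these shared contacts the highest mean in keratinocytes joined Cers2 to Pip5k1a over 233 kb (3.62 and 16.09, against 5.93 and 1.01), a value carried by keratinocytes 2.

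Outside TAD7, the 3 common calls joined Cdc42se1 to the S100a11 side described above, Gabpb2 to Lce1a2, a late cornified envelope gene 2512 kb away, and a Setdb1 fragment to a fragment 2297 kb away. The contact with Lce1a2 had Z scores of 4.49 and 2.54 in keratinocytes and 4.11 and 7.31 in thymocytes. That of Setdb1 had 16.16 and 5.51 against 3.64 and 4.71, the highest mean among keratinocyte calls leaving TAD7. The highest in thymocytes joined a fragment near Psmd4 to one in the interval next to Crnn over 1911 kb, with 23.40 and 20.20 against 0.01 and 5.23 in keratinocytes. Of the other 4 of the 5 highest keratinocyte calls, all specific to keratinocytes, the strongest joined Psmd4 to a fragment of TAD4 over 1408 kb (8.19 and 13.40, against 5.47 and 0.04), and 1 joined Lce1a1 of TAD3 to a fragment near Setdb1 (13.71 and 3.00, against -0.66 and 1.83). The others joined Psmd4 to Nup210l, a nucleoporin gene at the start of the locus (5.19 and 14.15, against 6.11 and 0.58 in thymocytes), and Sema6c to a fragment in the interval next to S100a16 (12.40 and 6.73, against 0.56 and -0.08), both in TAD1. The Psmd4 contacts with TAD4 and Nup210l also had q-values below 0.05 in thymocytes 1, but not in thymocytes 2.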

How the data were processed

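Chromosome conformation capture carbon copy (5C) was measured in 2 keratinocyte and 2 thymocyte libraries, grouped by their sample titles. Reads were aligned with Bowtie, per the labels, and mm9 coordinates are given. The authors removed poorly performing probes and outlying contacts, corrected probe coverage with Loess and deposited 1 table per library. The signal they deposited is the corrected 5C frequency, beside the expected frequency and its standard deviation by distance. The deposited score is the Z score, which recomputing gave for 100% of values. A p-value and q-value from a Weibull fit, deposited per library, test a contact against its library and not between cell types. Other deposited fields hold fragment coordinates and distance. Read depth is unknown, so no counting intervals are given, and unlisted contacts have no value.

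Fragments were assigned by midpoint. Values are over contacts listed in all 4 libraries. Library means were compared by two-sided exact permutation tests, and limma 3.58.1 (R 4.3.3, lmFit, eBayes with trend) was fitted over 23395 contacts and tested on simulated data. Genes are from GENCODE vM1 on mm9. Probe sequences come from the study's design table. Named contacts were all called contacts of E15 and E16 or, from 15 upward, the 5 highest, and the 5 highest called in each cell type within TAD7 and outward. The 20 genes are those the study lists in TAD7. Members, lists and tests were chosen with earlier results of these data known. Alternatives were other borders, scales, thresholds, averages and left-out libraries.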

Additional observations from a re-analysis of the deposited data

How the results depend on the processing

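Of 335 alternative computations for TAD7, its partners and its enhancers, 294 kept their direction or, for counts, stayed within 1.5 times, 18 turned and 23 moved further. The mean Z score within TAD7 kept its sign throughout, with differences of 0.10 to 0.53 when a library was left out and 0.09 without contacts under 50 kb, and that of E15 within TAD7 stayed between 0.42 and 1.43 when a library was left out. With the median, the differences from TAD7 to the rest of the locus, TAD2, TAD3, TAD4 and TAD6 turned to 0.0592, -0.0694, 0.0801, 0.15 and 0.0241. The log2 mean frequency within TAD7 turned to 0.93 with the median, 0.88 without contacts under 50 kb and 0.82 with the mean of log2 frequencies. On the log2 scale of corrected over expected frequency, the differences to TAD2 and of E16 to the rest of the locus turned to -0.11 and 0.38. The border contrast turned to -0.0495 with all contacts each library lists, -0.10 with 100 kb bins and -0.0472 with contacts within TAD7 only, and the difference between cell types in the excess over TAD6 turned to -0.0065 at matched distance. Leaving out a library gave -0.19 to 0.42 for TAD2, -2.32 to 1.65 for E16 to the rest of the locus and -0.0341 to 0.12 for the border contrast. The cause of these turns was not tested.

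Calls depended on the threshold and on requiring both libraries. At a q-value under 0.01 the calls in keratinocytes were 51 within TAD7 and 62 outward, with 22 specific to keratinocytes and 17 common. With well-listed fragments only, chosen after seeing the data, they were 25 within and 66 outward in keratinocytes and 31 within in thymocytes. The next counts need a q-value below 0.05 in only 1 library but keep to contacts listed in both libraries of the cell type. They were 159 to 191 within TAD7 and 345 to 1042 outward in keratinocytes, and 101 to 113 and 403 to 484 in thymocytes. Specific calls ranged from 27 to 254 for keratinocytes and from 72 to 423 for thymocytes, and common calls from 38 to 71.

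The replicate block left the limma counts in TAD7 at 0 in either direction. Deviations of equal replicate numbers correlated at -0.12 over TAD7 contacts, and a crossed pairing, chosen after seeing the data, gave 2 lower and 0 higher contacts. No limma alternative without that crossing gave a call.

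For single genes 237 of 270 alternatives kept the sign. With all contacts each library lists, the outward differences turned to -0.26 for Gm128 and Bnipl, -0.10 for Prune, -0.74 for Anxa9 and -0.34 for Gm10691. With well-listed fragments the differences within TAD7 turned to 0.40 for Lysmd1 and 0.10 for Gabpb2. Leaving out a library gave ranges that crossed 0 within TAD7 for Cers2 (-5.67 to 0.61), Gabpb2 (-0.50 to 0.20), Lysmd1 (-0.74 to 0.37), Prune (-0.50 to 1.10), Scnm1 (-2.40 to 2.75), Sema6c (-0.0067 to 0.44), Setdb1 (-0.15 to 0.97) and Vps72 (-0.0535 to 1.05). Outward they did for Anxa9 (-0.52 to 1.68), Gm128 and Bnipl (-0.10 to 0.20), Fam63a (-2.32 to 1.65), Gm10691 (-0.10 to 0.11), Gm16740 (-0.31 to 0.10), Prune (-0.0889 to 0.0985), Psmd4 (-0.33 to 0.0293), Scnm1 (-1.30 to 0.26), Tmod4 (-0.91 to 0.52) and Tnfaip8l2 (-2.36 to 0.51).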
